A study of Rattus norvegicus with 6 samples.

Results

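The CpGs around Tnni1 on rat chromosome 13 were followed in the hippocampus of 6 rat pups, of which 3 were iron-deficient and 3 iron-sufficient. The files list 563 CpGs in a window of 100 nucleotides assigned to the Tnni1 promoter together with 20 kb on either side of it, of 22152541 CpGs listed in the whole genome. The window holds 31 of the 563 CpGs, and the flanks hold 532. The window was selected on its measured methylation difference between the diets, at a minimum coverage in every sample. Its difference is therefore given as a description and was not tested.

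Tnni1 encodes the slow skeletal isoform of troponin I, the inhibitory subunit of the troponin complex that regulates contraction of striated muscle. It is best known from slow-twitch muscle fibres and the developing heart, not from the hippocampus. Methylation of cytosines at CpGs is often low at active promoters and high over most of the rest of the mammalian genome. Whole-genome bisulfite sequencing (WGBS) converts unmethylated cytosines, and the share of unconverted reads at a CpG is taken as its methylation level.

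The pups were CD1 Sprague-Dawley rats, and the labels name no allele or transgene. Dams of the iron-deficient group received 4 ppm iron from gestational day 2 until postnatal day 7 and 200 ppm afterwards, whereas dams of the iron-sufficient group received 200 ppm throughout. Hippocampi of both groups were taken at postnatal day 15. The labels do not say whether the pups came from separate litters, so the p-values measure only the spread between these samples. The whole hippocampus was sequenced, so a change of methylation within cells and a change in the mix of cells cannot be told apart, and the tissue label was not checked because no expression was measured.

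Each sample listed between 16699344 and 21093430 CpGs, with a median coverage of 17 to 33 reads per CpG. In the 40 kb region, 385 of the 563 CpGs (68.4%) were listed in all 6 samples, and 176 (31.3%) had at least 10 reads in all 6. All 31 CpGs of the window had at least 10 reads in every sample, compared with 145 of 532 (27.3%) in the flanks. The study's DMR caller required 10 reads in every sample, so the count in the window followed from its selection. Values below use the CpGs with at least 10 reads in all 6 samples unless stated otherwise, and a methylation level of a segment is the percentage of methylated reads summed over its CpGs.

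The label of a promoter was checked against the RefSeq promoter of Tnni1, shown here because its CpGs place the gene relative to the window. The 250 bases before the gene start, read from RefSeq build GRCr8 at chr13:49781279-49781528 on the plus strand, are given 5′ to 3′ with CpGs in capitals.
Tnni1 promoter: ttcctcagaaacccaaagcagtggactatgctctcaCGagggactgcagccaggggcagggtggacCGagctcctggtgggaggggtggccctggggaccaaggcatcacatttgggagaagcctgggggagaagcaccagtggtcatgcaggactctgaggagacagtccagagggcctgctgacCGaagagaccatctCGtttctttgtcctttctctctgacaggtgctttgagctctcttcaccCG

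This promoter is not rich in CpGs. It holds 5 CpGs, at bases 37, 67, 187, 201 and 249, and 50.2% of the 33469 RefSeq promoters have 5 or fewer CpGs in the same 250 bases. The spacing of these CpGs matched the positions listed in the files at 1 place in the genome, which puts the start of Tnni1 at position 48830442 of chromosome 13 in build rn4. Of 676 promoters of chromosome 13 with at least 5 CpGs, 578 matched at 1 place and 98 at none, and 574 of the 578 lay on the annotated strand. Placed in this way, the window ended 11143 nucleotides before the start of Tnni1. It is therefore called the upstream window here and not the promoter.

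The start of LOC134481563, an uncharacterized RefSeq gene, was placed at 48813359, on the other side of the window and 5841 nucleotides before it. No other matched gene start lay in the 40 kb region. Farther out were Phlda3 at 48789678 and Csrp1 at 48750202 on the low-coordinate side, and Lad1 at 48850260 and Tnnt2, which encodes cardiac troponin T, at 48872972 on the high-coordinate side.

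None of the 5 CpGs of the Tnni1 promoter had at least 10 reads in all 6 samples, so the promoter itself was not tested and its levels are a description. At the first of them the methylation level was 38.2%, 100% and 0% in the iron-sufficient pups, with 34, 47 and 27 reads, and 76.4%, 100% and 100% in the iron-deficient pups, with 72, 3 and 33 reads. The 2 groups overlapped there. Over the 3 promoter CpGs listed in all samples the levels were 73.6%, 100% and 61.7% in the iron-sufficient pups and 89.4%, 100% and 100% in the iron-deficient pups, which also overlapped. Their means differed by 18 percentage points, from 35.3, 19.7 and 31.3 reads per CpG against 53.3, 5.33 and 27.

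The upstream window lay inside an unusual run of CpGs. From position 48819191 to 48819341, 48 CpGs followed each other over 152 nucleotides, and 45 of the 47 steps between neighbours were exactly 3 nucleotides, with 1 step of 6 and 1 of 9. This run is called the array. The window took in CpGs 4 to 34 of it. No other of the 12367450 bins of 100 nucleotides with a CpG held as many as 31 CpGs. The next held 28, and the median was 1. Because a read spans many of these CpGs, they are not independent measurements.

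In the upstream window the methylation levels of the 3 iron-sufficient pups were 48.5%, 32.6% and 37.9%. Those of the 3 iron-deficient pups were 67%, 66.6% and 75.2%. Every iron-deficient pup was higher than every iron-sufficient pup, with a gap of 18.2 percentage points between the groups. The means were 39.7% ± 8.1 (SD, n = 3) and 69.6% ± 4.8 (SD, n = 3), which differ by 29.9 percentage points.

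All 31 CpGs of the window had a higher weighted mean in the iron-deficient group, and the differences ranged from 12.7 to 57.8 percentage points with a median of 29.1. A single CpG met the criteria used here where the group means, weighted by coverage, lay 10 or more percentage points apart and the weighted unequal-variance comparison of the study's DMR caller gave a p-value of 0.05 or less. Of the 31 CpGs, 21 met these criteria, all higher in iron deficiency, and 10 met them without iron-sufficient replicate 3. In the genome 3.21% of the CpGs tested met them, 1.64% as increases and 1.57% as decreases. The values of the groups did not overlap at 21 of the 31 CpGs, all higher, compared with 2.68% of CpGs higher and 2.43% lower in the genome. Since the window was selected on this contrast, nothing is read from these counts.

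The difference was not even along the window. Over its first 10 CpGs the levels were 53.8%, 44.1% and 44% in the iron-sufficient pups and 77.2%, 86% and 88.1% in the iron-deficient pups, a difference of 36.5 percentage points. Over its last 10 CpGs they were 46.7%, 24.4% and 37.9% against 60%, 54.9% and 57.1%, a difference of 21 percentage points. The first 10 CpGs were more methylated than the last 10 in all 6 pups, by 7.07, 19.7 and 6.1 percentage points in the iron-sufficient and 17.2, 31.2 and 31 in the iron-deficient pups.

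The largest difference was at CpG 5 of the window, position 48819212. There the levels were 58.1%, 16.7% and 26.1% in the iron-sufficient pups, from 43, 66 and 88 reads. They were 75%, 96.3% and 92.2% in the iron-deficient pups, from 244, 299 and 116 reads, and the groups did not overlap. The smallest difference was at CpG 28, position 48819290, with 51.9%, 5.88% and 41.7% against 50.3%, 46.3% and 64.4%. The groups overlapped there and the criteria were not met. The most reads in all, 1097, were at CpG 12, position 48819233, where the levels were 49%, 63% and 39.9% against 62.4%, 72.6% and 87.9%. The groups overlapped slightly there, and the criteria were met.

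Just outside the window the weighted differences were 11 and 22.2 percentage points, below the 32.4 and 34 of its first and last CpG. At the array CpG just before the window, position 48819197, the levels were 76.9%, 57.4% and 61.2% in the iron-sufficient and 84.2%, 65% and 85.7% in the iron-deficient pups. At the array CpG just after it, position 48819302, they were 54.5%, 0% and 42.4% against 66%, 58.6% and 50.8%. The first CpG inside the window had 46.3%, 52.4% and 66.2% against 88.1%, 93.7% and 81%, and the last had 48.5%, 6.25% and 31% against 64.8%, 67.7% and 42.9%. Both CpGs inside met the criteria and both outside did not, but the DMR caller set the edges by criteria of this kind on the same samples, so nothing is read from this.

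**Figure D1:**
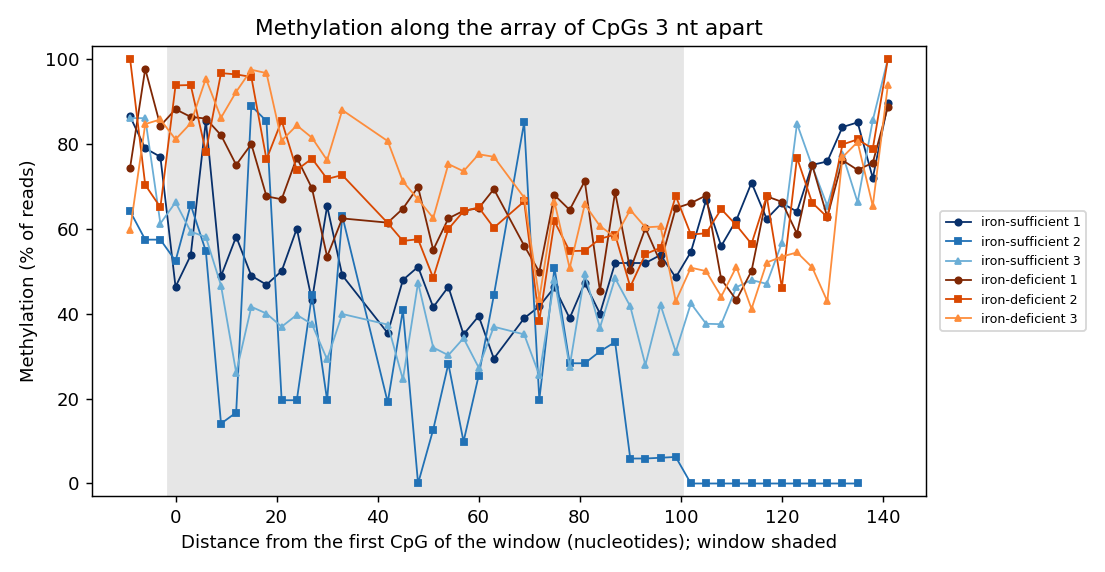
Methylation level (percent of reads, vertical axis) of each CpG of the array by distance in nucleotides from the first CpG of the window, with one line for each of the 6 samples and the window shaded. The iron-deficient samples lie above the iron-sufficient ones over most of the window, and iron-sufficient replicate 2 swings widely and stays at 0% after the window.

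One iron-sufficient pup stood apart along the array. In iron-sufficient replicate 2 the level ranged from 0% to 88.9% between CpGs of the window and changed by 22.7 percentage points on average from one CpG to the next. The other 5 samples changed by 7.74 to 10.2 percentage points per step. This replicate also differed outside the array. Of the CpGs there with at least 10 reads in the sample, 67.7% were at 0% or 100% in it, against 36.1% to 54.9% in the other 5 samples. Without this replicate the difference in the window was 26.4 percentage points.

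In the array beyond the window the levels of the diets overlapped. Where the window ends was itself set by the measured difference, so these values are a description. Over the 12 array CpGs after the window the levels were 69.8%, 0% and 54.3% in the iron-sufficient pups and 61.4%, 63.8% and 54% in the iron-deficient pups. Iron-sufficient replicate 2 had no methylated read at any of these 12 CpGs, each covered by 25 to 30 reads, which allows a level of up to 12% at the lowest and 10% at the highest of these coverages. The means were 41.4% ± 36.7 (SD, n = 3) and 59.7% ± 5.1 (SD, n = 3), which differ by 18.3 percentage points. Without iron-sufficient replicate 2 the difference was -2.65 percentage points, over all 14 array CpGs after the window. None of the 12 CpGs with 10 reads in all 6 samples, and none of the 3 before the window, met the criteria or had groups that did not overlap. The selection of the window largely fixed this.

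Over the whole array the levels were 56.9%, 29.8% and 43% in the iron-sufficient and 67.5%, 66.8% and 71.8% in the iron-deficient pups. The groups did not overlap, and their means of 43.2% ± 13.5 (SD, n = 3) and 68.7% ± 2.7 (SD, n = 3) differ by 25.5 percentage points. The array contains the selected window, so this too is a description.

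The coverage of the window, scaled to that of the flanks, did not overlap between the diets. Its CpGs had on average 39.8, 53.5 and 129 reads in the iron-sufficient pups and 230, 349 and 104 in the iron-deficient pups. These unscaled values overlapped (3.12-fold, two-sided exact permutation p = 0.2). Relative to the reads per CpG in the flanks of the same sample, this was 1.14, 1.58 and 2.63 against 3.85, 4.65 and 3.19. Every iron-deficient pup was above every iron-sufficient pup. The means were 1.78 ± 0.765 (SD, n = 3) and 3.89 ± 0.73 (SD, n = 3), a 2.29-fold ratio of geometric means with a two-sided exact permutation p = 0.1, the smallest that 3 against 3 allows.

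The coverage of the flanks overlapped between the groups. With array CpGs left out, the flanks had 33.5, 33.9 and 43.7 reads per CpG in the iron-sufficient and 52.2, 52.7 and 29.1 in the iron-deficient pups (1.17-fold, two-sided exact permutation p = 0.4). With these flanks as the base, the relative coverage of the window was 2.66-fold higher in the iron-deficient group. The window had more reads than 83%, 85.9% and 99.2% of all CpGs in the iron-sufficient samples and than 99.9%, 99.9% and 99.8% in the iron-deficient samples. These shares include CpGs below the minimum coverage that the window had to meet. The part of this coverage in the methylation difference was not tested.

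**Figure D2:**
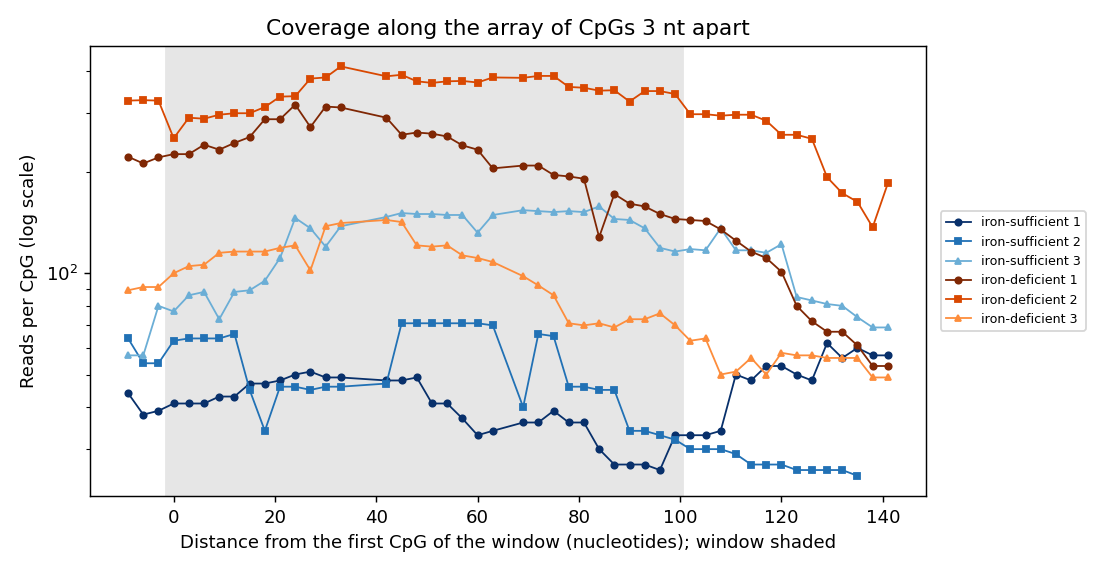
Reads per CpG (log scale, vertical axis) along the array by distance in nucleotides from the first CpG of the window, with one line for each of the 6 samples and the window shaded. Iron-deficient replicates 1 and 2 average 230 and 349 reads per CpG in the window, and iron-sufficient replicates 1 and 2 average 39.8 and 53.5. Iron-deficient replicate 3, at 104, is below iron-sufficient replicate 3, at 129.

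In the flanks the methylation levels of the diets overlapped. On the low-coordinate side the levels were 64.4%, 69.8% and 71.5% in the iron-sufficient and 67%, 65.8% and 71.7% in the iron-deficient pups, a difference of -0.398 percentage points (two-sided exact permutation p = 1). On the high-coordinate side they were 73.1%, 68.6% and 72.3% against 71.9%, 68.5% and 74.5%, a difference of 0.338 percentage points (two-sided exact permutation p = 1). With only the CpGs that had at least 20 reads in every sample, the difference on the low-coordinate side was 10 percentage points (two-sided exact permutation p = 0.3). With the array left out, the difference over both flanks was -1.83 percentage points (two-sided exact permutation p = 0.8).

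**Figure D3:**
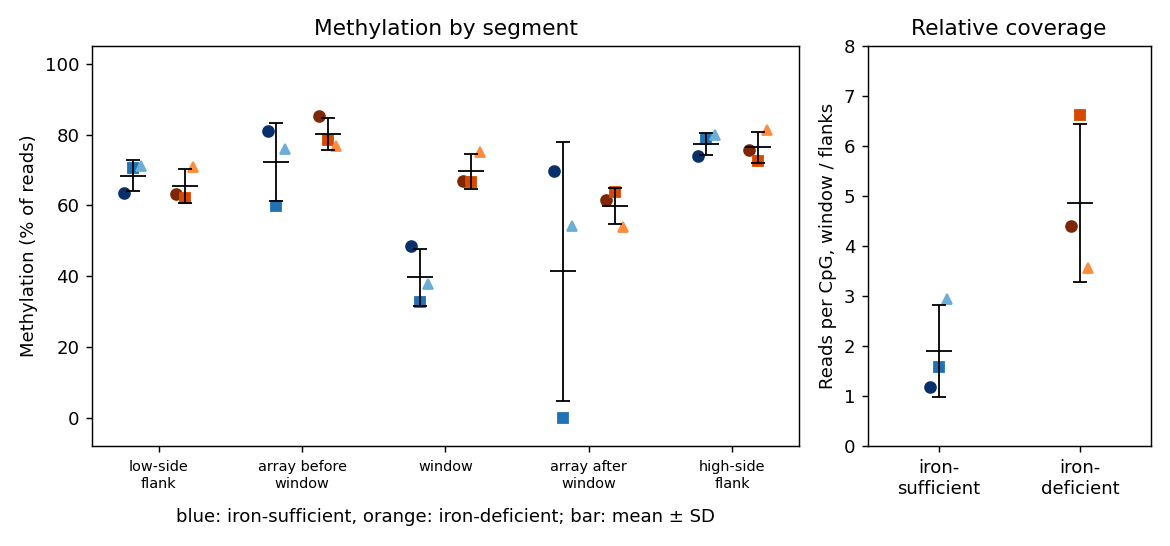
Left, methylation level (percent of reads) of each sample in the flanks without the array, the window and the parts of the array beside it. Right, reads per CpG in the window divided by those in the flanks without the array. Points are samples, circles, squares and triangles mark replicates 1, 2 and 3, and bars show the mean ± SD of 3 samples. The groups are apart in the window and in its relative coverage and overlap elsewhere.

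The flanks were not methylated evenly. Between 5 and 10 kb from the window on the low-coordinate side the levels lay between 36.6% and 52.4%, lower than in the other stretches more than 2 kb from the window, where they were 62.5% or more. LOC134481563 starts in this stretch. The tile of 1000 nucleotides that holds its start had levels of 73.1%, 90.5% and 75.9% in the iron-sufficient and 69.2%, 61.1% and 64.9% in the iron-deficient pups. These did not overlap (unadjusted p = 0.112 in the edgeR tile test below). Lower levels, of 1.81% to 47.2%, were in the tile that starts at position 48811000. Tile levels use all CpGs listed in all 6 samples, without a minimum of reads. Over such CpGs the levels of the stretch were 53.2% to 64.1%. Between 10 and 20 kb on that side the levels over CpGs with at least 10 reads in all 6 samples were 73.2% to 85%. No sample group stood apart in either stretch as a whole.

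Between the array and the start of Tnni1, the levels over 38 CpGs were 73.7%, 76.4% and 79.4% in the iron-sufficient and 79.8%, 81% and 81.4% in the iron-deficient pups. The groups did not overlap, by a gap of 0.37 percentage points, and differed by 4.24 percentage points (two-sided exact permutation p = 0.1, the smallest possible). This stretch was defined after its values were seen. The difference was 7.87 percentage points with at least 5 reads in every sample, 6.4 with at least 20 and 7.28 with no minimum, each with a two-sided exact permutation p = 0.1. These sets share CpGs and samples, so their p-values are not independent. As an unweighted mean over CpGs it was 1.29 percentage points, with groups that overlapped. With 1 replicate left out it was between 2.25, without iron-sufficient replicate 1, and 6.85, without iron-deficient replicate 1. The two-sided exact permutation p was 0.4 without iron-sufficient replicate 2 and 0.2 without any other replicate. These values use the CpGs with at least 10 reads in the remaining samples, not the same 38. From the start of Tnni1 to the end of the region, 29 CpGs had 74.2%, 82.6% and 80.3% against 68.3%, 62.5% and 80.9%. The difference there was -8.46 percentage points (two-sided exact permutation p = 0.3), and it was 0.681 when all 88 CpGs listed in every sample were used.

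Single CpGs outside the array met the criteria about as often as elsewhere in the genome. Of 130 such CpGs, 5 (3.85%) met them, 2 as increases and 3 as decreases, beside the 3.21% of the genome. Over the flanks with their array CpGs, this count became 5 to 11 with 1 replicate left out, where the CpGs tested changed too. The larger increase was at position 48820943, with 62.5%, 57.8% and 100% in the iron-sufficient and 100%, 100% and 80% in the iron-deficient pups, and the groups overlapped. The other, at 48809778, had 7.41%, 0% and 0% against 19%, 36.4% and 44.8%, with no overlap.

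The largest decrease was at position 48827414, which lies between the window and the start of Tnni1. Its levels were 84.6%, 100% and 75% in the iron-sufficient and 43.2%, 29.8% and 41.2% in the iron-deficient pups, without overlap. At 48802811 they were 100%, 100% and 79% against 59%, 28.9% and 7.14%, again without overlap. The last of these, 48812085, had 68.8%, 100% and 100% against 83.3%, 51.9% and 56%, which overlap.

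**Figure D4:**
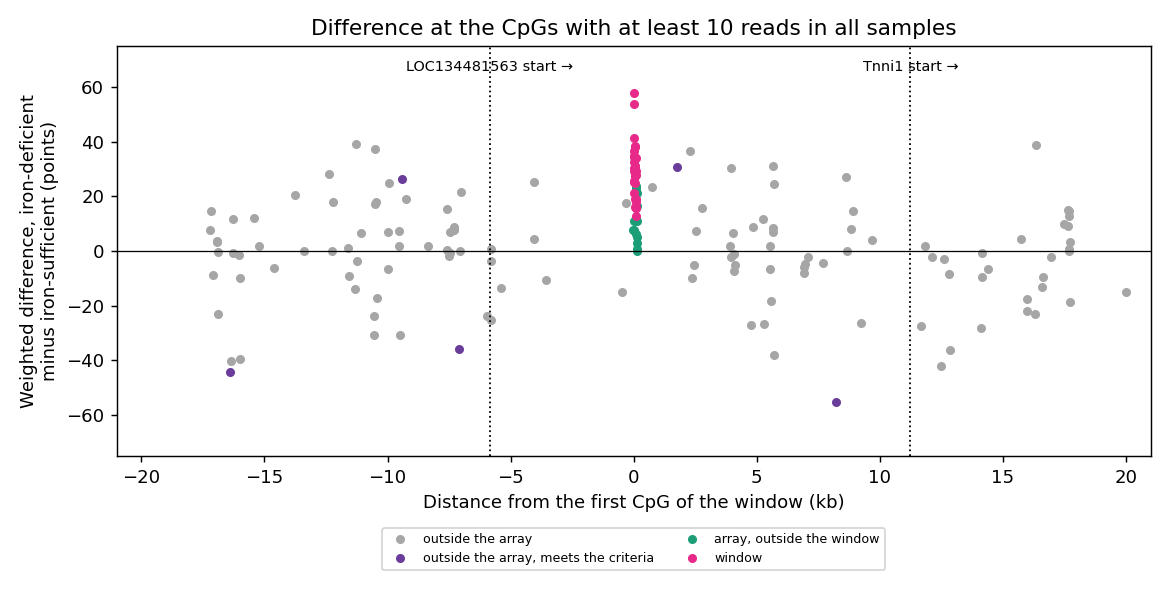
Coverage-weighted difference in methylation (iron-deficient minus iron-sufficient, percentage points) of the 176 CpGs with at least 10 reads in all samples, by distance in kb from the first CpG of the window. Dotted lines mark the starts of LOC134481563 and Tnni1. The CpGs of the window all lie above 0, at 12.7 to 57.8 points, and those of the flanks scatter on both sides of 0.

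Tiles of 1000 nucleotides were compared across the genome with edgeR's quasi-likelihood test, using all CpGs listed in all 6 samples. Of 894922 tiles, 3.01% had an unadjusted p under 0.05, and 0% (0 tiles) had a Benjamini-Hochberg adjusted p of at most 0.05. limma gave 38806 tiles with an unadjusted p under 0.05 and likewise 0 after adjustment. Of the 30 tiles in the region, 29 did not hold the window, and 1 of these had an unadjusted p under 0.05. This tile, which starts at position 48826000 and ends before Tnni1, had 97.5%, 100% and 95.8% in the iron-sufficient and 87.9%, 89.3% and 87% in the iron-deficient pups, which did not overlap (adjusted p = 1 by edgeR). The tile at the start of LOC134481563 was also lower in iron deficiency without overlap. Higher without overlap were the tiles that start at 48821000, 48825000 and 48836000. The first of these had 79.4%, 87.4% and 77.7% against 93.4%, 93.2% and 88.7% (unadjusted p = 0.06 by edgeR). The others had an unadjusted p of 0.135 and 0.0523 by edgeR. The share of such tiles in the genome was not counted. None of the 29 tiles had an unadjusted p under 0.05 in edgeR without iron-sufficient replicate 1, iron-deficient replicate 1 or iron-deficient replicate 3. The number was 3 without iron-sufficient replicate 2, 2 without iron-sufficient replicate 3 and 3 without iron-deficient replicate 2.

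The array was compared with the other runs of its kind, by a rule made after its values were seen. In the genome, 62 runs of at least 20 CpGs had only steps of 3, 6 or 9 nucleotides. The run at Tnni1 had the most CpGs, 48, and the next had 36. Of the 62 runs, 25 had at least 5 CpGs with 10 reads in all samples.

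In 11 of these 25 runs all 6 pups were at 90% or more. Of the 24 others, 16 had a mean of at least 90% over the 6 samples, and their median was 93.3%. The run at Tnni1 had a mean of 56%, and 1 other was lower. Its levels spanned 42 percentage points between the 6 pups. The median span of the others was 16.1, but 4 of them spanned more than the run at Tnni1. The 4 nearest to it in mean level spanned 37.1 to 85.8. Of these, the runs with spans of 85.8 and 71.3 had 5 and 7 CpGs with 10 reads in all samples. Those with spans of 57.8 and 37.1 had 23 and 21, and the run at Tnni1 had 46. Spans over such unequal numbers of CpGs are not directly comparable. The difference between the diets was 25.5 percentage points at Tnni1 and between -6.4 and 33.4 in the others, with a median of 0.958. The groups did not overlap, with iron deficiency higher, in 2 of the 25 runs (8%), the run at Tnni1 included, and in none with iron deficiency lower.

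**Figure D5:**
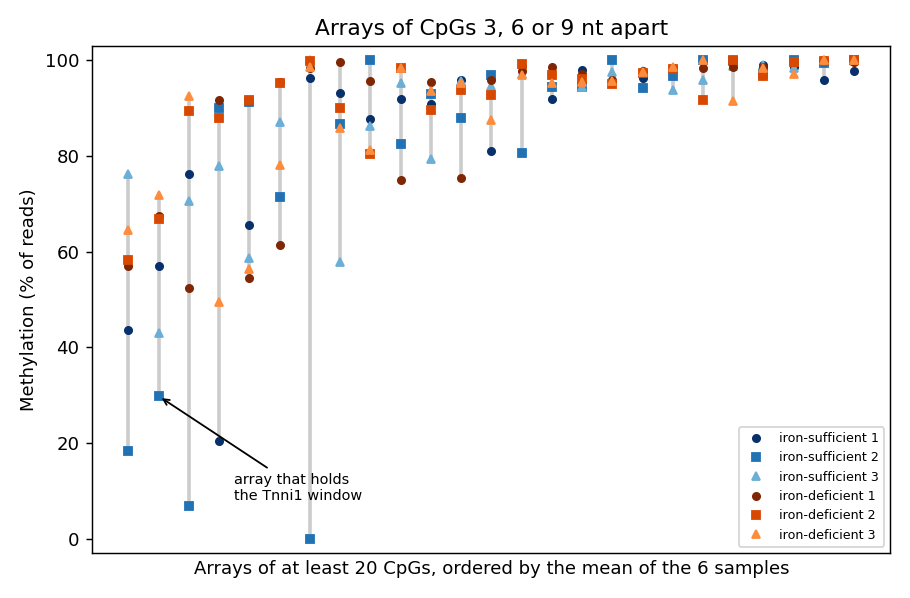
Methylation level (percent of reads) of each of the 6 samples in the 25 runs of at least 20 CpGs that are 3, 6 or 9 nucleotides apart, ordered by their mean over the samples. Grey bars span the lowest to the highest sample. The run at Tnni1 has the lowest mean but 1, at 56%, and 16 of the 24 others are at 90% or more.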

How the data were processed

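WGBS of 6 hippocampi was used, 3 per diet, grouped by the labels. The authors trimmed adapters, aligned reads of 100 bases to rn4 with BS Seeker version 1, tallied calls and joined both strands at every CpG. They sequenced samples as paired-end or single reads and took read 1 where reads overlapped. The format of each sample was not taken into account here. The authors deposited, per CpG, a methylated fraction and a coverage, the latter being a read count without normalization. The sources used here state neither the removal of duplicates nor whether positions count from 0 or 1. Fraction times coverage was within 0.01 of a whole read everywhere, so methylated counts were recovered. Intervals and limits from reads cover counting error only.

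The window was positions 48819200 to 48819299 of chromosome 13 and the region 48799200 to 48839299. The window and the lists were chosen with earlier results of these data known. Named CpGs were the first, last, largest, smallest and best and least covered of the window, its neighbours, and up to 3 increases and 3 decreases in the flanks. Segments were tested between the diets by exact permutation, two-sided. Tiles of 1000 nucleotides with at least 5 CpGs and a total coverage of at least 50 per sample were fitted with edgeR 4.0.16 (R 4.3.3) and, as an alternative, limma 3.58.1 on log2 ratios, all tested on simulated data. Other steps used Python 3.11.15, numpy 2.4.6 and scipy 1.17.1. The sequence of the array was not read because no rn4 genome was used.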

Additional observations from a re-analysis of the deposited data

How the results depend on the processing

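The difference in the window was 25.5 to 34.3 percentage points in the 12 alternatives, which is no sign of stability, since the window was selected on these values, its groups do not overlap, and the coverage minimums and the block cannot change it. The log2 relative coverage was 0.93 to 1.56, against 1.2. With 1 replicate left out, segments and single CpGs used CpGs with at least 10 reads in the remaining samples, changing those outside the window. Flank differences changed sign easily. On the low-coordinate side, -0.398 became -1.86 with a coverage of at least 5, 10 with at least 20, -1.01 with no minimum, 1.68 as an unweighted mean, -3.03 without the array, and -2.12 to 1.98 when 1 replicate was left out, with the sign changed without iron-sufficient replicate 2 (1.98) or 3 (0.98). On the high-coordinate side, 0.338 became 3.59 with a coverage of at least 5, 3.15 with at least 20, 3.92 with no minimum, 2.56 as an unweighted mean, -1.03 without the array, and -0.395 to 3.59 with 1 replicate left out, the lowest without iron-deficient replicate 3 and the highest without iron-deficient replicate 2. Between the array and the start of Tnni1 all 11 alternatives kept the sign of 4.24, from 1.29 to 7.87. This is no sign of stability either. That stretch was defined after its values were seen, its groups did not overlap, and the block cannot change its difference. After the window in the array, leaving out 1 replicate gave -2.65 to 32.6, the lowest without iron-sufficient replicate 2. From the start of Tnni1, -8.46 became 2.47 with a coverage of at least 20, 0.681 with no minimum, and -11.7 to 0.353 with 1 replicate left out, the highest without iron-sufficient replicate 2. The 21 window CpGs that met the criteria became 11 with a p-value of at most 0.01 and 10 to 20 with 1 replicate left out, 10 without iron-sufficient replicate 3. The 5 of 145 flank CpGs became 3 unweighted and 1 with a p-value of at most 0.01. Other numbers were tested with a coverage of at least 5 (11 met them) and 20 (1). Leaving out 1 replicate gave 5 to 11, 11 without iron-sufficient replicate 2 and 8 without iron-deficient replicate 2. Of the 2 tiles of the region with a p under 0.05, 1 holds the window, which was selected on this contrast, so that tile is a description. With limma the 2 became 1, a tile of the flanks. With 1 replicate left out the count was 0 to 4. It was 0 without iron-deficient replicate 3, 4 without iron-deficient replicate 2, and 1 without replicate 1 of either group. The cause was not tested. The alternatives without the array, of the whole array and of the stretches beside it were chosen after seeing the data. Replicate numbers did not pair the samples (r from 0.002 to 0.005 over tiles). With the replicate number as a block the differences were 29.9, -0.398 and 0.338 percentage points in the window and flanks, the log2 relative coverage was 1.2 (exact sign-flip p = 0.25), and 2 tiles of the region passed, the tile that holds the window included. Depth limits the flanks, where 27.3% of CpGs had 10 reads in all samples.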

Other observations

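The reads of the runs of closely spaced CpGs are given here without scaling to the depth of the samples and without a test. The log2 difference in mean reads per CpG, iron-deficient minus iron-sufficient, was 1.54 in the run at Tnni1, with a median of 0.66 and a range of -0.39 to 1.87 in the 24 other runs, 2 of which had a larger difference. It was above 0 in 20 of the 24, at 0 in 1 and below 0 in 3. Iron-sufficient replicate 2 had the fewest reads in 14 of the 25 runs and the lowest methylation level in 7. The run with 36 CpGs, on chromosome 10 from 11226774 to 11226984, had at least 10 reads in all samples at 9 of them, where the levels were 96.3%, 0% and 100% in the iron-sufficient and 98.4%, 99.8% and 98.5% in the iron-deficient pups. Iron-sufficient replicate 2, at 0% there, was at 29.8% over the run at Tnni1.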
